A study of Mus musculus with 22 samples.

Results

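Chemokines are small secreted proteins that attract leukocytes and other cells, and they act through receptors of the G protein-coupled type. Their RNA was followed in mouse cardiac fibroblast cultures during conversion towards induced cardiomyocytes. The genes were chosen by name alone: every gene name of the deposited expression table that begins with Ccl, Cxcl, Cx3cl or Xcl (ligands) or with Ccr, Cxcr or Xcr (receptors) and goes on with a number. The rule took 54 of 34378 names, 35 ligands and 19 receptors, and used no measured value. Cx3cr1 does not begin with any of these prefixes and is described with the genes of the wider system. The current RefSeq symbol of Cxcr7 is Ackr3.

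The cells were cardiac fibroblasts (CF) from the CD1 strain. Their genotype was aMHC-GFP, in which a cardiac myosin promoter drives a green fluorescent reporter. Untransduced CF were taken at day 0. The other cultures had received retrovirus with lacZ, the bacterial beta-galactosidase gene that serves as the control, or with MGT, a polycistronic transgene of the cardiac transcription factors Mef2c, Gata4 and Tbx5, and were taken at days 3, 5, 7, 10 and 14. The labels call both sets control CF transduced with lacZ or with MGT. The 11 groups held 2 arrays each, 22 in all, and the labels do not say whether the arrays of a group came from separate cultures, so p-values rest on the spread between the samples at hand, and this may be only technical. The labels name no sorting step.

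Chemokines fall into CC, CXC, CX3C and XC classes by the spacing of cysteines near the N terminus. Many of them are silent until NF-kappaB, interferon or cytokine signals switch on their genes (the inflammatory ligands), while others are made steadily and guide cells to tissues (the homeostatic ligands). Fibroblasts, macrophages and endothelial cells of the heart all make chemokines, and Ccl2 and its receptor Ccr2 are known for bringing monocytes into injured myocardium.

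A level is given below as the log2 signal of 1 probe per gene relative to the 75th percentile of its array. A difference is a log2 difference with the standard error (SE) of 1 limma fit over all 22 arrays, and adjusted p-values are Benjamini-Hochberg values over all genes tested, with a threshold of 0.05. Levels of different probes cannot be set against each other. The second lacZ array of day 14 was the dimmest, with a 75th percentile of 726, and the other 21 had 1271 to 2092. Between 48.4% and 71.0% of spots per array were well above background. The number of arrays limits the precision. Days 3 and 5 were read on 1 slide, days 7 and 10 on another, day 0 and day 14 lacZ on one more and day 14 MGT alone on the last of 4 slides. MGT minus lacZ is therefore a difference within a slide at days 3 to 10, whereas at day 14, in comparisons with day 0 and between days 3 and 14 slide and group cannot be told apart. The same holds for steps from day 5 to day 7 and from day 10 to day 14 within a vector. Of 14 fibroblast markers 13 were above background on all 22 arrays, with a summed signal of 812 to 832 times the 75th percentile at day 0. On days 3, 5, 7, 10 and 14 this sum was 977 to 995, 1056 to 1066, 1234 to 1257, 1105 to 1301 and 1184 to 1767 with lacZ, and 900 to 958, 760 to 836, 785 to 794, 776 to 792 and 536 to 555 with MGT. Cardiomyocyte markers summed to between 13.2 and 59.2 in lacZ cultures and between 352 and 940 in MGT cultures.

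Of the 54 genes, 47 (32 ligands and 15 receptors) had at least 1 group in which both arrays were well above background, and were tested. A set of 26 genes, 23 ligands and 3 receptors (Cxcr4, Cxcr6 and Cxcr7), was above background on all 22 arrays. The 7 that were left out were the receptors Ccr4, Cxcr1, Cxcr5 and Xcr1 and the ligands Cxcl15, Cxcl17 and Xcl1. Of these, Ccr4, Cxcr5, Cxcl15 and Cxcl17 were above background on no array, and Cxcr1, Xcl1 and Xcr1 each on 1. The array thus read most chemokine ligands in these cultures, but most receptors only on some arrays.

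**Figure D1:**
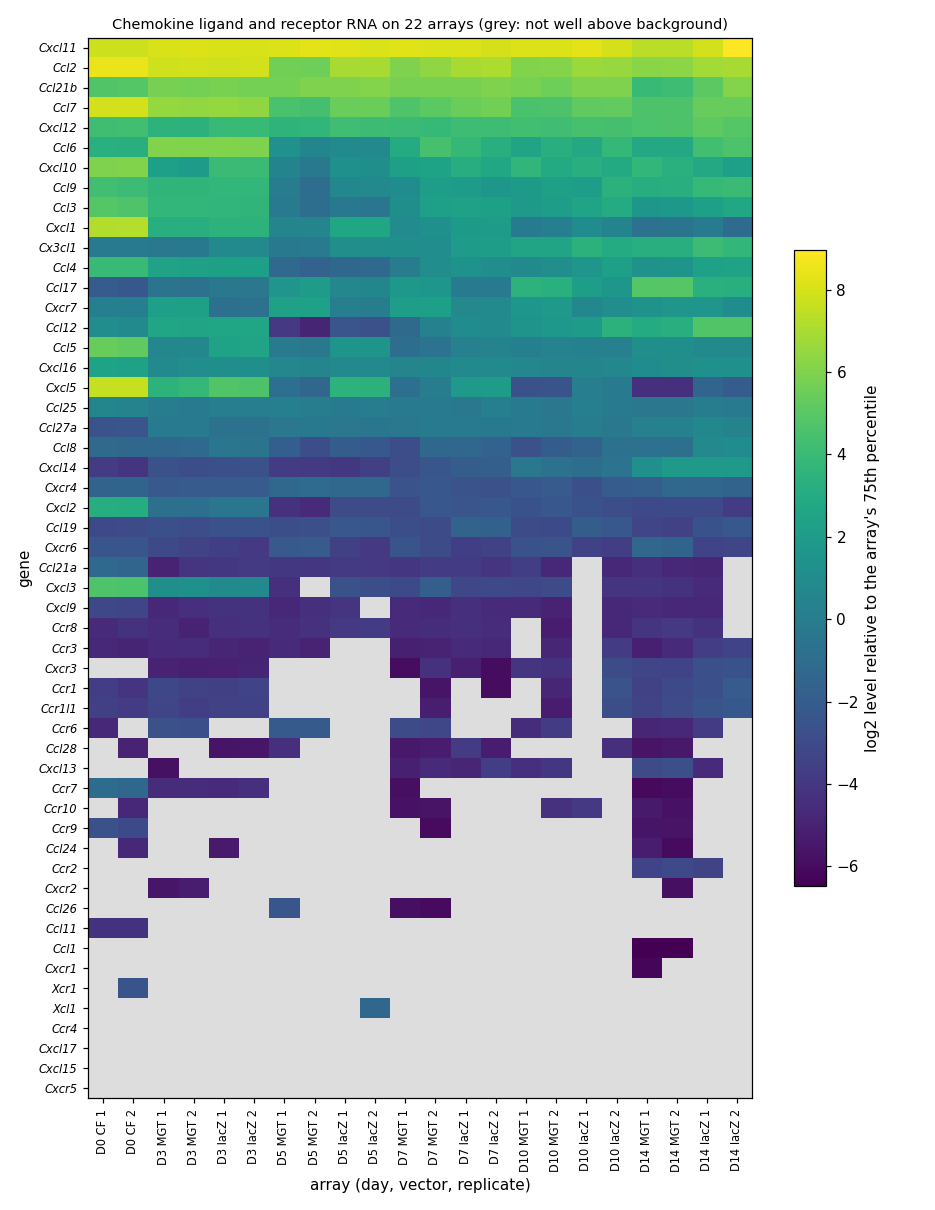
Level of the chemokine genes reported by name (rows) on the 22 arrays (columns, by day, vector and replicate), as log2 signal relative to the array's 75th percentile, with grey for a signal not well above background. The 26 upper rows have a level on every array, and receptor rows lie mostly in the lower part, with grey at day 5 and elsewhere. Colours of different rows come from different probes and are not comparable.

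MGT cultures were first set against lacZ cultures of the same day, with the 5 days averaged, to show how the reprogramming factors differ from a control virus. More chemokine ligands were lower with MGT than higher. The largest falls were those of Cxcl5, Ccl12, Cx3cl1, Ccl8, Ccl5 and Cxcl1, and the rises were those of the receptors Ccr6, Cxcr7 and Cxcr6 and of the ligands Ccl17 and Cxcl13. Of 47 genes 29 passed the test, 5 higher and 24 lower, against 63.7% of all 18055 genes with a value in this comparison (23.2% higher and 40.5% lower). The share called in all was thus near that of all genes. The median difference was -0.28 for the 47 genes and -0.09 for all genes. Among ligands 2 of 32 passed as higher and 21 as lower (median -0.39), and among receptors 3 of 15 passed as higher and 3 as lower (median 0.028). Of the 29 calls, 21 were measured above background on all 20 lacZ and MGT arrays, 7 in part (among them Ccl24, Ccr3, Ccr6, Ccr8, Cxcl13 and Cxcl9), and 1, Ccl11, on none of them. With arrays scaled to the 75th percentile of only the probes above background on every array, 6 of the 47 were higher and 17 lower, and 49.7% of the calls over all genes were higher, against 36.4% with the scaling used here. The average over 5 days includes day 14, where vector and slide cannot be told apart. With the scaling used here and days 3 to 10 alone, 22 of the 47 passed, 4 higher and 18 lower, against 58.8% of all genes. In cultures that mix cell types, fewer cells of a type and less RNA per cell cannot be told apart.

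**Figure D2:**
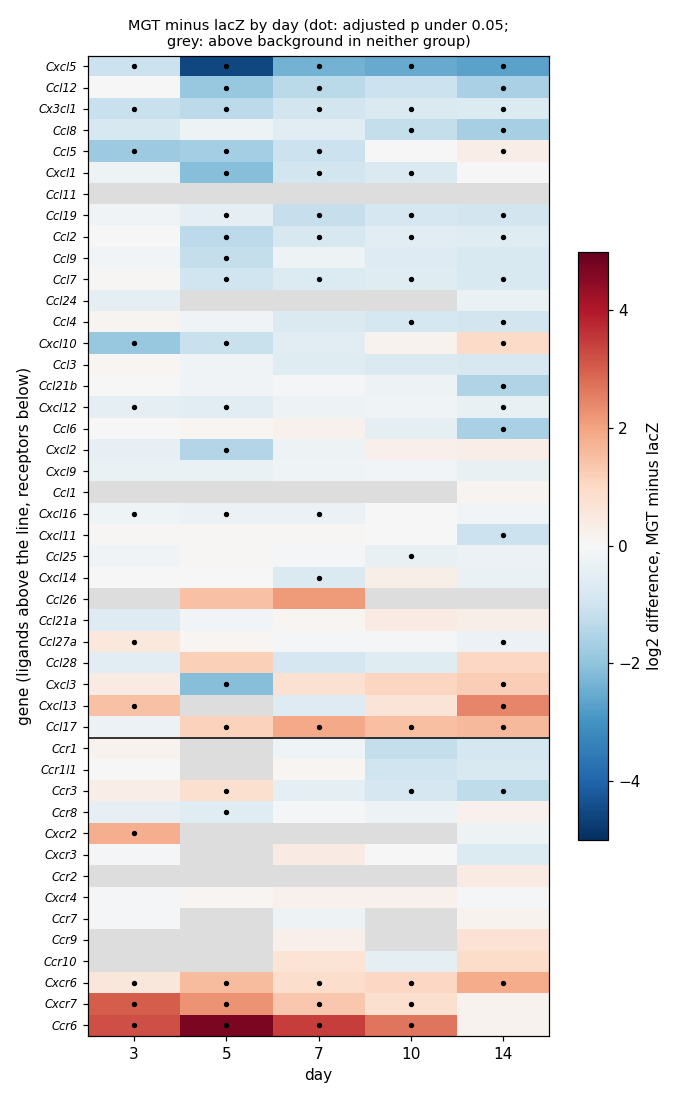
Log2 difference of MGT minus lacZ for the tested genes reported by name (rows, ligands above the line and receptors below, ordered by the averaged difference) on each day (columns). Dots mark adjusted p under 0.05 and grey marks a gene above background on no array of either group that day. Cxcl5 at the top is lower on all 5 days and reaches -4.57 at day 5, and Ccr6, Cxcr7 and Cxcr6 at the bottom are higher, with Ccr6 and Cxcr7 near 0 at day 14.

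Cxcl1, Cxcl2, Cxcl3 and Cxcl5 are the ELR-type CXC ligands, which attract neutrophils through Cxcr1 and Cxcr2 and whose genes NF-kappaB is known to drive. Cxcl5 was lower with MGT on each of the 5 days. The averaged difference was -2.64 (SE 0.11, adjusted p = 1.21e-10), the largest fall among the 47 genes. Untransduced CF read 7.60 and 7.61. In lacZ cultures Cxcl5 read 4.75 and 4.68 on day 3, 3.49 and 3.46 on day 5, 1.88 and 2.03 on day 7, 0.10 and -0.20 on day 10, and -1.45 and -2.01 on day 14. With MGT Cxcl5 read 3.52 and 3.79 on day 3, -0.84 and -1.35 on day 5, -0.82 and 0.0054 on day 7, -2.65 and -2.49 on day 10, and -4.41 and -4.41 on day 14. The level was lower at day 14 than at day 3 in both sets, and every MGT value lay below both lacZ values of its day. The difference was -1.06 (SE 0.24, adjusted p = 0.00485) at day 3 and -4.57 (SE 0.24, adjusted p = 8.16e-09) at day 5. On days 7, 10 and 14 it was -2.36, -2.52 and -2.68, and all 5 passed.

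Cxcl1 fell by 0.80 (SE 0.11, adjusted p = 1.85e-05) on average. Its untransduced level was 7.21 and 7.22. In lacZ cultures Cxcl1 read 3.50 and 3.51 on day 3, 2.67 and 2.68 on day 5, 1.96 and 2.05 on day 7, 1.06 and 0.49 on day 10, and -0.15 and -1.09 on day 14. With MGT Cxcl1 read 3.19 and 3.27 on day 3, 0.56 and 0.57 on day 5, 0.96 and 1.25 on day 7, -0.092 and 0.17 on day 10, and -0.67 and -0.55 on day 14. The MGT arrays lay below the lacZ arrays on days 3 to 10, and the sets overlapped on day 14. Its difference passed at days 5 (-2.11), 7 (-0.90) and 10 (-0.74), and did not at days 3 (-0.27, adjusted p = 0.463) and 14 (0.015, adjusted p = 0.963). The day 7 call was lost without the second lacZ array (-0.86, adjusted p = 0.0512) or the first MGT array (-0.75, adjusted p = 0.0787), and the day 10 call without the first lacZ (-0.46, adjusted p = 0.218) or the first MGT array (-0.61, adjusted p = 0.146).

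For Cxcl2 and Cxcl3 the fall was seen at day 5. Cxcl2, at 3.14 and 3.06 in untransduced CF, read -2.97 and -2.93 with lacZ and -4.29 and -4.58 with MGT at day 5, a difference of -1.48 (SE 0.22, adjusted p = 0.000137). On the other days its 2 sets differed by -0.41, -0.27, 0.25 and 0.34, none past the threshold, and its averaged difference was -0.32 (SE 0.10, adjusted p = 0.0135), lost with the other 75th percentile scaling (-0.23). In lacZ cultures Cxcl3 read 0.83 and 0.84 on day 3, -2.62 and -2.76 on day 5, -3.21 and -3.10 on day 7, -4.09 and -4.17 on day 10, and -4.56 and -6.25 on day 14. With MGT Cxcl3 read 1.23 and 1.27 on day 3, -4.41 and -5.21 on day 5, -2.99 and -1.79 on day 7, -3.17 and -2.92 on day 10, and -4.14 and -4.22 on day 14. The MGT arrays lay below the lacZ arrays on day 5 and above them on the other days. At day 5, where the second MGT array was not above background, the difference passed (-2.12, SE 0.45, adjusted p = 0.00213). Its day 14 values were -4.56 and -6.25 with lacZ, the second not above background, and -4.14 and -4.22 with MGT. That day was called higher (1.23, SE 0.45, adjusted p = 0.0389), but the call was lost without the second lacZ array (0.38, adjusted p = 0.449) and without either MGT array (adjusted p = 0.13 and 0.106), and the direction turned with normexp background correction (-0.22). All 4 ligands were lower at day 5, whereas averaged over days 0 of 4 passed as higher and 3 as lower. Of 8 neutrophil markers tested, 0 passed as higher and 4 as lower on average (median -0.72), against 40.5% of all genes lower. Retnlg was above background on no array and S100a9 on 7. The summed signal of the neutrophil markers at day 5 was higher with MGT, 89.9 to 93.3 against 81 to 81.6 with lacZ. The part of these markers in the result was not tested.

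The promoters of 3 of these ligands share a stretch of letters, which is why they are shown, together with that of Cxcl10. RefSeq's promoter table (GRCm38.p6, 250 bases before to 50 after the start) matched 39 of the 54 genes, and had entries for Cxcl1, Cxcl2 and Cxcl3 but none for Cxcl5. Capitals mark matches, on either strand, to the kappaB consensus, the site class of NF-kappaB, and in Cxcl10 also to the core of the interferon-stimulated response element, GAAA and a second GAAA with any 2 bases between. The windows are chr5:90890995-90891294 for Cxcl1, chr5:90903649-90903948 for Cxcl2 and chr5:90785851-90786150 for Cxcl3, all on the plus strand, and chr5:92348840-92349139 for Cxcl10 on the minus strand.
Cxcl1: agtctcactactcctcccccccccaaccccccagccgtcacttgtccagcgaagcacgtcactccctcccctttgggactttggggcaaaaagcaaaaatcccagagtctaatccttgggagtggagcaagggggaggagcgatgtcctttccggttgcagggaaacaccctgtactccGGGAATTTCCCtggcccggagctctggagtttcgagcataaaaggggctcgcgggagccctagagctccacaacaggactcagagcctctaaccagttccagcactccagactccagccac
Cxcl2: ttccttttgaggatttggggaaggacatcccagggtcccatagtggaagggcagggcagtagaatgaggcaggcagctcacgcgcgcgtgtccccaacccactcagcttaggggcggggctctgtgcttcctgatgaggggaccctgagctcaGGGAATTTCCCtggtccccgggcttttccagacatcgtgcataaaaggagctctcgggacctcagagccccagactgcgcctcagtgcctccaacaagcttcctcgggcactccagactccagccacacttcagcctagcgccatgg
Cxcl3: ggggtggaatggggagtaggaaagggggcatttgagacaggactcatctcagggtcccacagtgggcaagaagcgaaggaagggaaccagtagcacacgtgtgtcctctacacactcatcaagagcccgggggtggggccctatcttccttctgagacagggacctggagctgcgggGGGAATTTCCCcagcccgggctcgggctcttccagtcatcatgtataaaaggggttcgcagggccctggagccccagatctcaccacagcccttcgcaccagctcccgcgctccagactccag
Cxcl10: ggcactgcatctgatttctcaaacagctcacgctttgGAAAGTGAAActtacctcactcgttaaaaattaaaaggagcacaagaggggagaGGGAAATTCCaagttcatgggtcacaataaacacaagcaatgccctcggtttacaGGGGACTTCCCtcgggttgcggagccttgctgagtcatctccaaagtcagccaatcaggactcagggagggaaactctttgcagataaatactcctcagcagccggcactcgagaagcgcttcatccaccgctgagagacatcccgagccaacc
The same run, GGGAATTTCCC, begins 71 bases before the start of Cxcl1, 97 before that of Cxcl2 and 73 before that of Cxcl3, and holds 2 overlapping matches in each. In Cxcl10 the kappaB matches begin 159, 104 and 103 bases before the start, the last 2 overlapping, and the other core 213 before it. The kappaB consensus was found in 2779 of 32851 promoters of this length (8.46%) and in 10 of the 39 matched chemokine genes (Ccl1, Ccl27a, Ccl9, Ccr1, Ccr3, Ccr6, Cxcl1, Cxcl10, Cxcl2 and Cxcl3). That core was found in 1131 (3.44%) and in 3 of the 39 (Ccl19, Cxcl10 and Cxcl14). The shares over all promoters count single entries, whereas a chemokine gene counted where any of its entries matched. The units are thus unlike, and the shares cannot be set directly against each other. A match describes the letters only, and no measurement here bears on binding at these sites.

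**Figure D3:**
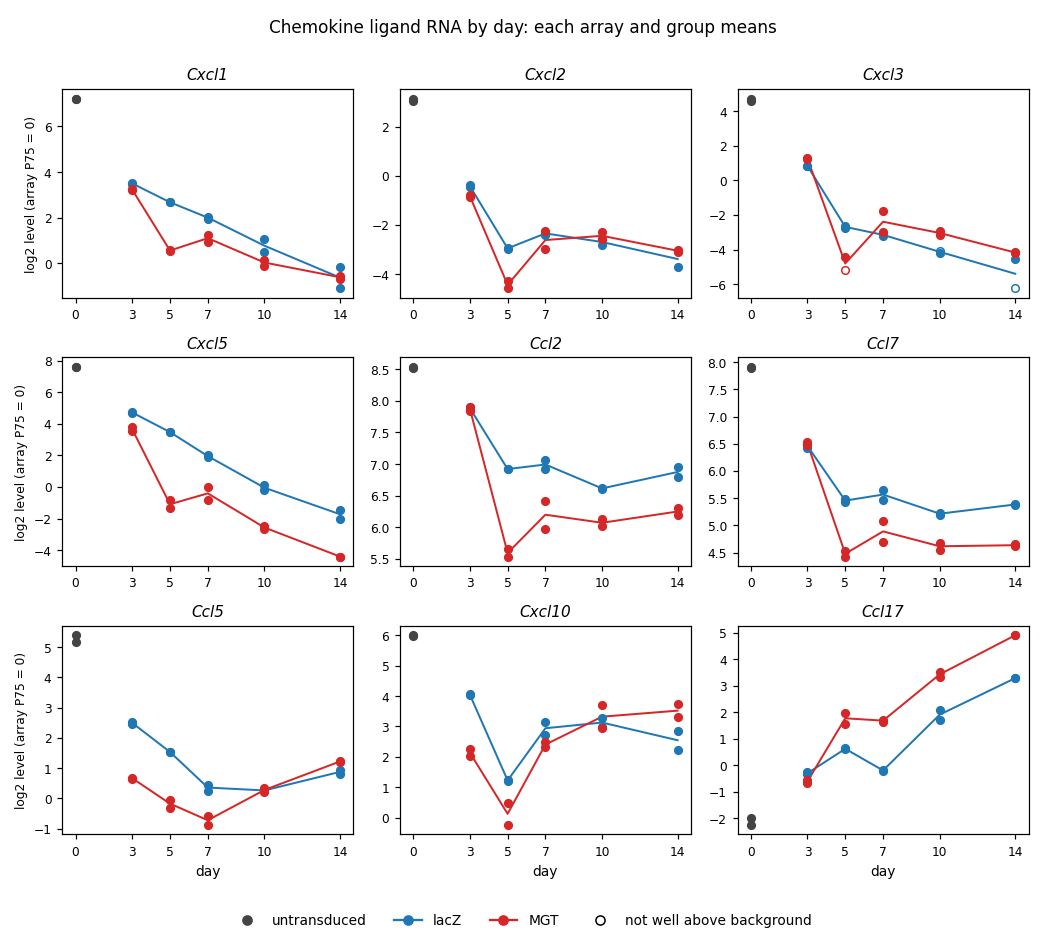
Level of 9 chemokine ligands by day (horizontal axis) as log2 signal relative to the array's 75th percentile (vertical axis, own range per panel). Each point is 1 array (grey untransduced, blue lacZ, red MGT, open where not well above background) and lines join the means of 2 arrays. Cxcl5 with MGT ends at -4.41 on both day 14 arrays, Ccl2 and Ccl7 part after day 3, Ccl5 and Cxcl10 start lower with MGT and end above lacZ, and Ccl17 rises in both sets.

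Ccl2, Ccl7, Ccl8, Ccl11, Ccl12, Ccl24 and Ccl26 were listed as the Ccr2 and Ccr3 type of CC ligands. Many of this type attract monocytes or eosinophils through these receptors. Of the 7 genes 6 passed as lower with MGT on average and 0 as higher (median -0.66), against 40.5% of all genes lower. The 6 include Ccl11, above background on none of the 20 arrays compared, and Ccl24, above background on 3 of them and lost in 16 other settings. At day 3 limma called 0 of the 7, with 0 at an unadjusted p under 0.05. Ccl2, the main monocyte attractant of fibroblasts, fell by 0.66 on average (SE 0.051, adjusted p = 8.09e-08). It read 8.52 and 8.54 in untransduced CF. In lacZ cultures Ccl2 read 7.87 and 7.90 on day 3, 6.92 and 6.92 on day 5, 6.92 and 7.07 on day 7, 6.63 and 6.60 on day 10, and 6.80 and 6.95 on day 14. With MGT Ccl2 read 7.84 and 7.91 on day 3, 5.65 and 5.54 on day 5, 5.98 and 6.42 on day 7, 6.01 and 6.13 on day 10, and 6.19 and 6.31 on day 14. The sets overlapped at day 3 (-0.0093, adjusted p = 0.97) and did not overlap from day 5 on. The difference was -1.33 (SE 0.11, adjusted p = 7.69e-07) at day 5, and -0.79, -0.54 and -0.62 on days 7, 10 and 14, all past the threshold. The day 14 call was lost with quantile normalization (-0.18, adjusted p = 0.229) and with the authors' deposited values (-0.16, adjusted p = 0.383).

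Ccl7 followed the same course. Its untransduced level was 7.91 and 7.90. In lacZ cultures Ccl7 read 6.50 and 6.42 on day 3, 5.43 and 5.48 on day 5, 5.48 and 5.66 on day 7, 5.20 and 5.23 on day 10, and 5.40 and 5.37 on day 14. With MGT Ccl7 read 6.53 and 6.47 on day 3, 4.53 and 4.43 on day 5, 4.69 and 5.09 on day 7, 4.56 and 4.68 on day 10, and 4.62 and 4.65 on day 14. From day 5 on every MGT value was below every lacZ value of its day. The averaged difference was -0.59 (SE 0.046, adjusted p = 9.91e-08), with 0.041 at day 3 and between -0.60 and -0.98 from day 5 on, each of these past the threshold. Fibroblast markers were lower with MGT as well, 13 of 14 on average (median -1.11), with sums that lay below lacZ on all 5 days, and their part in the falls of Ccl2 and Ccl7 was not tested.

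Ccl12, a mouse monocyte attractant close to Ccl2, fell by 1.19 (SE 0.21, adjusted p = 0.000194) on average. It read 1.12 and 0.90 at day 0. In lacZ cultures Ccl12 read 2.59 and 2.58 on day 3, -2.39 and -2.63 on day 5, 1.05 and 0.83 on day 7, 2.02 and 3.43 on day 10, and 4.80 and 4.75 on day 14. With MGT Ccl12 read 2.67 and 2.53 on day 3, -3.91 and -4.91 on day 5, -1.12 and 0.30 on day 7, 1.504 and 1.78 on day 10, and 3.03 and 3.25 on day 14. Both sets dropped at day 5 and rose again to day 14, and the sets overlapped at day 3 (0.016, adjusted p = 0.988). Its difference passed at days 5 (-1.90), 7 (-1.35) and 14 (-1.63). The day 5 call was lost without the second MGT array (-1.40, adjusted p = 0.0642), that of day 14 without the first (-1.52, adjusted p = 0.0602), and that of day 7 without either lacZ array or the first MGT array (-0.64, adjusted p = 0.36 for the latter). Ccl8 fell by 0.88 (SE 0.19, adjusted p = 0.00139) on average, and its day 0 level was -1.16 and -1.32. In lacZ cultures Ccl8 read -0.40 and -0.51 on day 3, -1.90 and -2.21 on day 5, -1.41 and -1.64 on day 7, -1.55 and -0.69 on day 10, and 0.79 and 1.02 on day 14. With MGT Ccl8 read -1.30 and -1.22 on day 3, -1.88 and -2.74 on day 5, -2.84 and -1.24 on day 7, -2.64 and -1.95 on day 10, and -0.71 and -0.77 on day 14. The sets overlapped on days 5 and 7, and the replicates lay far apart on some days. The difference passed at days 10 (-1.18, adjusted p = 0.0475) and 14 (-1.65, adjusted p = 0.00731). The day 10 call was lost without the second lacZ array (-0.75, adjusted p = 0.283), without the first MGT array (-0.83, adjusted p = 0.263) and in 4 other settings. Averaged over days 3 and 5 alone, the difference did not pass (-0.54, adjusted p = 0.182).

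The eotaxins were mostly below background. Ccl11 was above background only on the untransduced arrays (-4.22 and -4.23), so its MGT minus lacZ calls rest on signals that were not measured. Ccl24 was above background on 4 of 22 arrays, and Ccl26 on 3, the first MGT array of day 5 and both of day 7 (-5.85 and -6.05). Ccl26 differed by 2.12 at day 7 (adjusted p = 0.231) and did not pass.

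Ccl3, Ccl4, Ccl5, Ccl6 and Ccl9 act on monocytes and other leukocytes, Ccr1 being one of their receptors, and Ccl3, Ccl4, Ccl6 and Ccl9 are known as products of macrophages. Of the 5 genes 4 passed as lower on average and 0 as higher. The averaged differences were -0.59 (SE 0.19, adjusted p = 0.0132) for Ccl9, -0.52 for Ccl4 (SE 0.13, adjusted p = 0.00297) and -0.44 for Ccl3 (SE 0.14, adjusted p = 0.0127), and -0.35 for Ccl6, which did not pass (adjusted p = 0.123). Within days 3 and 5 alone these calls were lost for Ccl3 (-0.038), Ccl4 (-0.036) and Ccl9 (-0.66). Ccl9 was also lost within days 7 and 10 alone (-0.45, adjusted p = 0.232), and Ccl3 over days 3 to 10 (-0.36, adjusted p = 0.0632). Ccl6 read 3.34 and 3.24 at day 0. In lacZ cultures Ccl6 read 6.06 and 5.99 on day 3, 0.90 and 0.86 on day 5, 3.83 and 3.25 on day 7, 2.83 and 3.81 on day 10, and 4.28 and 4.65 on day 14. With MGT Ccl6 read 6.02 and 6.07 on day 3, 1.35 and 0.64 on day 5, 3.03 and 4.45 on day 7, 2.56 and 3.20 on day 10, and 2.83 and 2.87 on day 14. It was high at day 3, lowest at day 5 and higher again at day 7 in both sets, with MGT below lacZ at day 14 (-1.62, SE 0.42, adjusted p = 0.0064). Ccl3 went from 3.68 and 3.63 at day 3 to -0.25 and -0.41 at day 5 and 2.38 and 2.27 at day 7 with lacZ, and with MGT from 3.77 and 3.72 to -0.074 and -0.92 and 1.19 and 2.25.

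Macrophage and monocyte markers had a time course with the same low point at day 5. The summed signal of the 19 markers on the array, in units of the 75th percentile, was 99 to 108 at day 0. On days 3, 5, 7, 10 and 14 it was 95.4 to 97, 63.5 to 63.6, 97.2 to 111, 133 to 287 and 448 to 631 with lacZ. With MGT the sum was 116 to 121, 78 to 86.3, 100 to 129, 154 to 163 and 349 to 386 on the same days. The sum was lowest at day 5 and highest at day 14 in both sets. Days 7, 10 and 14 lay on other slides than day 5. Rises after day 5, also those of Ccl12, Ccl6 and Ccl3, thus cannot be told apart from slide. Of the markers 17 were above background on all 22 arrays and Cd163 on none. Averaged over days 0 of 18 passed as higher and 1 as lower (median 0.0018), and at day 14 3 of 18 were lower. The second day 10 lacZ array had more than the first, and on it Ccl12 and Ccl6 were higher too. The part of macrophages in these results was not tested.

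**Figure D4:**
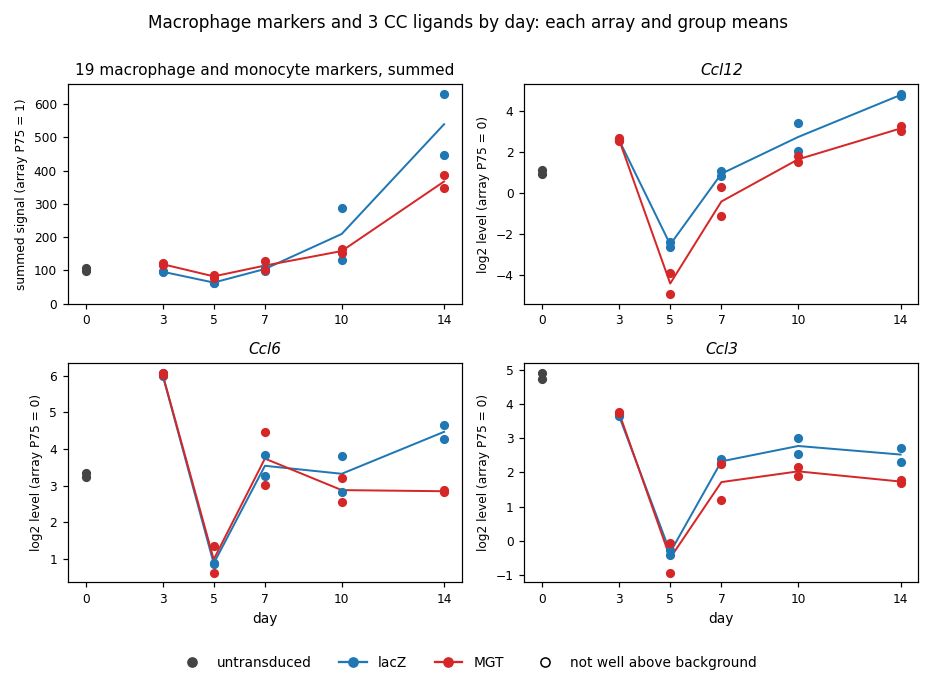
Summed signal of 19 macrophage and monocyte markers in units of the array's 75th percentile (upper left, linear axis from 0) and log2 level of Ccl12, Ccl6 and Ccl3 by day. Points are arrays (grey untransduced, blue lacZ, red MGT) and lines join means of 2 arrays. All 4 panels have their lowest values at day 5, and the marker sum is highest at day 14, at 448 to 631 with lacZ and 349 to 386 with MGT.

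Cxcl9, Cxcl10 and Cxcl11 are the interferon-inducible ligands of Cxcr3, which attract activated T cells and natural killer cells. Cxcl10 turned over time: it was lower with MGT early and higher at day 14. Its untransduced level was 5.97 and 6.01. In lacZ cultures Cxcl10 read 4.02 and 4.07 on day 3, 1.25 and 1.20 on day 5, 3.15 and 2.73 on day 7, 3.28 and 2.98 on day 10, and 2.86 and 2.24 on day 14. With MGT Cxcl10 read 2.25 and 2.02 on day 3, 0.49 and -0.24 on day 5, 2.31 and 2.50 on day 7, 3.69 and 2.95 on day 10, and 3.73 and 3.31 on day 14. The MGT arrays lay below the lacZ arrays at days 3, 5 and 7, overlapped them at day 10 and lay above them at day 14. The difference was -1.91 (SE 0.28, adjusted p = 0.000193) at day 3 and -1.10 (SE 0.28, adjusted p = 0.00785) at day 5. It did not pass on days 7 (-0.54) and 10 (0.19) and was 0.97 (SE 0.28, adjusted p = 0.0128) at day 14. The change from day 3 to day 14 was 2.88 (SE 0.40, adjusted p = 0.000214). The day 5 call was lost without the second MGT array (-0.74, adjusted p = 0.0986), and that of day 14 without the second lacZ array (0.66, adjusted p = 0.121) or the first MGT array (0.76, adjusted p = 0.109).

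Ccl5, which attracts T cells and monocytes through receptors such as Ccr1 and Ccr3, had a like course. Untransduced CF read 5.40 and 5.17. In lacZ cultures Ccl5 read 2.47 and 2.51 on day 3, 1.54 and 1.52 on day 5, 0.25 and 0.46 on day 7, 0.29 and 0.24 on day 10, and 0.94 and 0.81 on day 14. With MGT Ccl5 read 0.68 and 0.65 on day 3, -0.042 and -0.31 on day 5, -0.88 and -0.57 on day 7, 0.20 and 0.35 on day 10, and 1.23 and 1.20 on day 14. MGT values were below lacZ values at days 3, 5 and 7, and above them at day 14, and at day 10 one lay below and the other above both lacZ values. Its difference went from -1.83 (SE 0.12, adjusted p = 9.34e-08) at day 3 over -1.71 and -1.08 to 0.015 at day 10 and 0.34 (SE 0.12, adjusted p = 0.0277) at day 14, and the change from day 3 to day 14 was 2.17 (SE 0.17, adjusted p = 1.59e-06). The small day 14 difference was lost without the second lacZ array (0.28, adjusted p = 0.131) or either MGT array (0.33, adjusted p = 0.109 and 0.36, adjusted p = 0.0799).

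Cxcl9 was above background on 19 of 22 arrays and fell by 0.28 with MGT on average (adjusted p = 0.0389), a call lost in 20 of the other settings run. The probe used for Cxcl11 read close to the same on days 0 to 10, between 7.78 and 8.32. It shares runs of 20 bases with 5 probes of other gene names on the same strand, among them those of Elk1, F10, Med16 and Ndor1, and with 2 on the opposite strand. The run that most of them hold, found in 4 same-strand probes, is shown because a signal from it cannot be assigned to Cxcl11 alone.
Cxcl11 probe, shared run: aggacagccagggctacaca
The second Cxcl11 probe, which shares no such run, differed by 0.17 on average (SE 0.12, adjusted p = 0.245). The fall of the first probe at day 14 (-1.08, SE 0.24, adjusted p = 0.00219) was lost with the deposited table (0.017, adjusted p = 0.913) and with the mean of both probes (-0.58, adjusted p = 0.0638), so the level of Cxcl11 is uncertain.

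Cx3cl1, fractalkine, is made as a membrane-bound protein that both tethers and attracts cells with Cx3cr1. It was lower with MGT on all 5 days, with a difference of -0.94 (SE 0.060, adjusted p = 1.13e-08) on average. Untransduced CF read -0.15 and -0.19. In lacZ cultures Cx3cl1 read 0.88 and 0.81 on day 3, 1.14 and 1.16 on day 5, 1.997 and 2.14 on day 7, 3.44 and 3.03 on day 10, and 4.12 and 3.72 on day 14. With MGT Cx3cl1 read -0.32 and -0.25 on day 3, -0.24 and -0.036 on day 5, 1.20 and 1.12 on day 7, 2.54 and 2.51 on day 10, and 3.29 and 3.19 on day 14. It rose in both sets, and every MGT value lay below both lacZ values of its day. The difference went from -1.13 at day 3 and -1.29 at day 5 to -0.91, -0.71 and -0.68 on the later days, all past the threshold. At day 14 the call was lost with the deposited table (-0.41, adjusted p = 0.0761). Endothelial markers were lower with MGT as well (1 of 14 passed as higher and 11 as lower, median -1.52), with a summed signal of 43.3 to 43.4 with lacZ and 32.8 on both arrays with MGT at day 3, and 16.5 to 22.1 and 15.4 to 16.5 at day 14. At day 5 the sum was 28.3 to 28.8 with lacZ and 25.6 to 26.7 with MGT. The sets overlapped at day 7 (21.3 to 24.1 and 20.2 to 21.9) and day 10 (18.5 to 23.5 and 20.1 to 21.9). Their sum went down with time while Cx3cl1 went up, and their part in the result was not tested.

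Cxcl12, the ligand of Cxcr4 and Cxcr7 that guides progenitor cells, had 2 probes that disagreed. The probe used, near the end of the long transcript, fell by 0.37 (SE 0.041, adjusted p = 3.61e-06), whereas the other rose by 0.26 (SE 0.041, adjusted p = 0.00011). No direction for Cxcl12 RNA as a whole can be given from these. Cxcl16, the ligand of Cxcr6, fell by 0.19 (SE 0.034, adjusted p = 0.000334). Cxcl14 did not pass on average (-0.16, adjusted p = 0.141). Cxcl13, which attracts B cells through Cxcr5, passed as higher on average (0.70, SE 0.23, adjusted p = 0.018), but it was above background on 7 of 10 MGT and 3 of 10 lacZ arrays. Its day 14 values were -2.92 and -2.70 with MGT and -4.63 and -5.90 with lacZ, the second of these not above background (2.45, SE 0.52, adjusted p = 0.00179). Without day 14 the averaged call of Cxcl13 was lost (0.26, adjusted p = 0.411).

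Among the homeostatic CC ligands Ccl17 rose and Ccl19 fell. Ccl17 attracts T cells and other cells with Ccr4 and is known from dendritic cells and macrophages. Its untransduced level was -1.98 and -2.25. In lacZ cultures Ccl17 read -0.27 and -0.33 on day 3, 0.64 and 0.61 on day 5, -0.20 and -0.19 on day 7, 2.10 and 1.73 on day 10, and 3.31 and 3.28 on day 14. With MGT Ccl17 read -0.53 and -0.67 on day 3, 1.57 and 1.98 on day 5, 1.73 and 1.64 on day 7, 3.53 and 3.34 on day 10, and 4.92 and 4.90 on day 14. At day 3 the MGT arrays lay slightly below the lacZ arrays (-0.30, adjusted p = 0.124), and from day 5 on all of them lay above. The difference was 1.15 (SE 0.14, adjusted p = 2.10e-05) at day 5 and 1.88, 1.52 and 1.62 on days 7, 10 and 14, and 1.17 (SE 0.062, adjusted p = 1.67e-09) on average. Its receptor Ccr4 was above background on no array. Dendritic and mast cell markers were also higher on average (4 of 7 passed as higher and 1 as lower, median 0.42), with a summed signal of 1.19 to 1.22 with lacZ and 2.33 to 2.34 with MGT at day 3 and 0.767 to 0.875 and 2.08 to 2.1 at day 14, and their part in the result was not tested.

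Ccl19, a ligand of Ccr7 that guides T cells and dendritic cells, fell by 0.71 (SE 0.060, adjusted p = 2.45e-07). In lacZ cultures Ccl19 read -2.57 and -2.61 on day 3, -2.28 and -2.32 on day 5, -1.57 and -1.76 on day 7, -1.93 and -2.30 on day 10, and -2.61 and -2.23 on day 14. With MGT Ccl19 read -2.73 and -2.83 on day 3, -2.77 and -2.69 on day 5, -2.76 and -2.86 on day 7, -2.90 and -3.00 on day 10, and -3.25 and -3.46 on day 14. Every MGT value lay below both lacZ values of its day, with the widest gap at day 7 (-1.15, SE 0.14, adjusted p = 1.61e-05). The day 5 difference passed (-0.43, SE 0.14, adjusted p = 0.023) but not without any 1 of that day's 4 arrays (-0.47, adjusted p = 0.0568 at the lowest p). All 3 Ccl19 probes were lower on average, the other 2 by -0.78 and -1.93. Ccl21a did not differ past the threshold (0.0044, adjusted p = 0.981), and Ccl21b fell by 0.41, a difference that rested on day 14 (-1.51) and was lost without it (-0.14, adjusted p = 0.317). Ccl21a and Ccl21b are near-identical copies whose probes share a run of 20 bases, so their separate values are uncertain. Ccl25 fell by 0.18 (adjusted p = 0.0198), a call lost in 5 other settings, and Ccl1 and Ccl28 were above background on 2 and 11 of 22 arrays. The Ccl27a probes disagreed. The brightest, used here, did not pass (0.050, adjusted p = 0.443), and the other 3, above background on all arrays, were higher by 0.26, 0.31 and 0.16 (adjusted p = 6.22e-05, 0.000103 and 0.0232).

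Among the 15 receptors tested, 3 rose and 3 fell on average, and the rises were the larger. Cxcr7 (Ackr3) is an atypical receptor that binds and removes Cxcl12. It rose by 1.52 (SE 0.067, adjusted p = 2.31e-10). Untransduced CF read 0.19 and 0.21. In lacZ cultures Cxcr7 read -0.79 and -0.68 on day 3, 0.13 and 0.078 on day 5, 0.80 and 0.89 on day 7, 0.74 and 1.10 on day 10, and 1.58 and 1.05 on day 14. With MGT Cxcr7 read 2.24 and 2.33 on day 3, 2.35 and 2.37 on day 5, 2.14 and 2.25 on day 7, 1.62 and 1.82 on day 10, and 1.40 and 1.56 on day 14. The MGT level was high from day 3 and went down slowly, whereas the lacZ level rose, so that the sets overlapped at day 14. The difference went from 3.02 (SE 0.15, adjusted p = 8.15e-09) at day 3 over 2.26, 1.35 and 0.80 to 0.17 at day 14 (adjusted p = 0.386), and the change was -2.85 (SE 0.21, adjusted p = 1.28e-06).

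Ccr6, the receptor of Ccl20 on lymphocytes and dendritic cells, was above background on all MGT arrays but on 1 of 10 lacZ arrays. The untransduced arrays read -4.76 and -5.90, the second not above background. In lacZ cultures Ccr6 read -5.97 and -5.80 on day 3, -7.08 and -6.57 on day 5, -6.97 and -6.12 on day 7, -6.39 and -7.28 on day 10, and -3.81 and -6.12 on day 14. With MGT Ccr6 read -2.66 and -2.68 on day 3, -2.13 and -2.13 on day 5, -2.98 and -3.18 on day 7, -4.48 and -3.82 on day 10, and -4.81 and -4.74 on day 14. Of the lacZ values only -3.81 at day 14 was a measured level. Where no lacZ array measured it, the size is a bound, with each lacZ array entered at the dimmest probe still well above background there, or at Ccr6 itself where that was brighter. Ccr6 was at least 9.27-fold higher with MGT at day 3 (adjusted p = 0.0011), at least 5.4-fold at day 5, at least 6.98-fold at day 7 and at least 1.91-fold at day 10. At day 14 it did not pass (0.19, adjusted p = 0.819). Ccr6 was tested only because both arrays of MGT groups measured it, so its p-values against lacZ are no separate support for the rise. Averaged over days, T, NK and B cell markers were 1 higher and 6 lower of 10 tested. Of the 13 on the array, Cd3e, Cd4, Lck and Nkg7 were above background on all 22 arrays, and Cd3d and Cd3g on day 0 arrays alone. At day 14, 8 to 9 of the 13 were above background with MGT and 5 with lacZ. The share of all spots above background on these arrays was 68.9% to 71.0% with MGT and 48.4% to 55.2% with lacZ. The summed signal of the 13 markers went the other way, 5.27 to 5.37 with MGT and 8.74 to 17.95 with lacZ. Their part in the result was not tested.

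Cxcr6, the receptor of Cxcl16, was higher with MGT on all 5 days. At day 0 it read -2.37 and -2.36. In lacZ cultures Cxcr6 read -3.62 and -3.92 on day 3, -3.53 and -3.89 on day 5, -3.60 and -3.50 on day 7, -3.51 and -3.66 on day 10, and -3.38 and -3.24 on day 14. With MGT Cxcr6 read -3.08 and -3.30 on day 3, -2.19 and -2.05 on day 5, -2.48 and -2.89 on day 7, -2.58 and -2.52 on day 10, and -1.40 and -1.51 on day 14. Every MGT value was above both lacZ values of its day. The averaged difference was 1.19 (SE 0.067, adjusted p = 3.28e-09), and 1.11 with a second probe. It was 0.58 at day 3, where the call was lost without the second lacZ array (0.43, adjusted p = 0.113) or the first MGT array (0.47, adjusted p = 0.093), and 1.86 (SE 0.15, adjusted p = 4.10e-07) at day 14.

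The other receptors changed less with the vector. Cxcr4 was above background on all arrays and differed by 0.068 (adjusted p = 0.528), with an SE of 0.089. Ccr3 and Ccr8 passed as lower on average with small differences (-0.29 and -0.23), and these calls were lost in 15 and 3 other settings. Ccr3 went from 0.34 at day 3 to -1.28 at day 14, and its average over days 3 and 5 was higher with MGT (0.56). Ccr1 and its neighbour Ccr1l1 did not pass on any day. Cxcr2, the receptor of the ELR ligands, was above background on both MGT arrays of day 3 (-5.57 and -5.23) and on neither lacZ array, at least 1.45-fold higher (adjusted p = 0.042), a call lost in 7 other settings. Cxcr2 was tested only because both of these MGT arrays measured it, so this p-value is no separate support. Ccr2, Ccr7, Ccr9 and Ccr10 passed in no averaged comparison and were above background on 3 to 9 arrays.

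**Figure D5:**
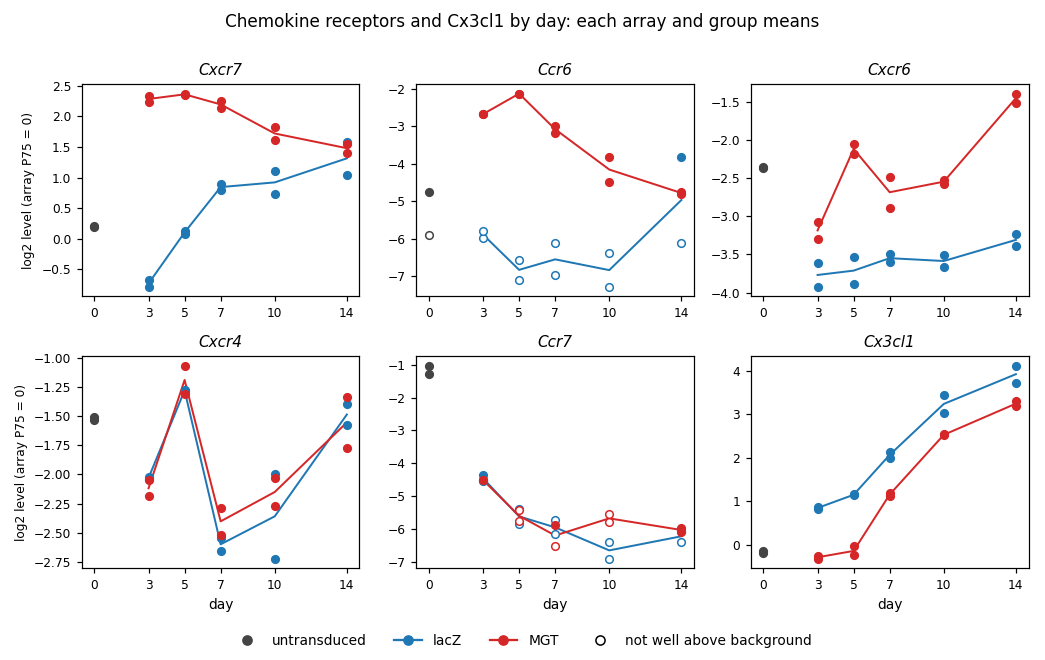
Level of 5 chemokine receptors and the ligand Cx3cl1 by day, as log2 signal relative to the array's 75th percentile (vertical axis, own range per panel). Points are arrays (grey untransduced, blue lacZ, red MGT, open where not well above background) and lines join means of 2 arrays. Cxcr7 with MGT is above lacZ until day 10 and meets it at day 14, Ccr6 is measured mainly with MGT, Cxcr6 stays above lacZ, and Ccr7 has its highest values, -1.02 and -1.26, at day 0.

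On single days the number of the 47 genes past the threshold was 12 (6 higher and 6 lower) at day 3, against 30.2% of all genes, and 20 (5 higher and 15 lower) at day 5, against 37.7% of all genes. It was 14 (4 higher and 10 lower) at day 7, against 37.2% of all genes, then 16 (5 higher and 11 lower) at day 10, against 39.1% of all genes, and last 21 (6 higher and 15 lower) at day 14, against 47.3% of all genes. The shares of all genes that were lower were 18%, 21.5%, 22.6%, 23.9% and 29.1% on these days. Those that were higher were 12.1%, 16.2%, 14.7%, 15.1% and 18.2%. Falls outnumbered rises among the 47 genes from day 5 on, and among all genes on all 5 days. At days 7 and 10 the falls, 10 and 11 of 47, were near the lower share of all genes. At day 3 the 3 largest falls were Cxcl10, Ccl5 and Cx3cl1, and of the ELR ligands and those of the Ccr2 and Ccr3 type Cxcl5 alone passed. At day 5 these were Cxcl5, Cxcl3 and Cxcl1, and the 3 largest rises were Ccr6, Cxcr7 and Cxcr6. At day 7 the falls of Cxcl5, Ccl12 and Ccl19 and the rises of Ccr6, Ccl17 and Cxcr7 led. At days 10 and 14 Cxcl5 fell and Ccl17 and Cxcr6 rose. Among the larger falls, Ccl24 at day 10 and Ccl11 at day 14 were above background on no array compared. With only the arrays of 1 day in the fit, fewer genes passed at days 10 and 14.

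Whether the MGT minus lacZ difference itself changed was tested from day 3 to day 14. It changed for 15 of 47 genes, 4 towards higher and 11 towards lower, against 27.2% of all genes. Of the 15, 13 were above background on all 8 arrays. The upward changes were those of Cxcl10, Ccl5, Ccl17 and Cxcr6 (1.27, SE 0.21, adjusted p = 0.0008). The largest measured downward changes were those of Cxcr7, Cxcl5 (-1.62, SE 0.34, adjusted p = 0.004), Ccr3 (-1.62, SE 0.34, adjusted p = 0.00395) and Ccl21b (-1.49), with Ccr6 at -3.03 in part on signals at background. The day 14 arrays lay on other slides than the day 3 arrays, and MGT and lacZ of day 14 on different ones.

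The comparisons of day 3 with untransduced day 0 ask what transduction and the first days of culture change, and they share the day 0 arrays. Many chemokine levels were higher before transduction. In these comparisons 22 of 47 genes were lower and 9 higher in lacZ cultures at day 3 (57.6% of all genes called, 28.3% higher and 29.3% lower), and 22 lower and 9 higher in MGT cultures (62.2% called, 28.7% higher and 33.5% lower). The median difference was -0.65 with lacZ and -0.56 with MGT, against -0.01 and -0.04 for all genes. All 4 ELR ligands tested were lower. Cxcl1 differed by -3.71 (SE 0.24, adjusted p = 3.04e-08) with lacZ and -3.98 with MGT, Cxcl2 by -3.52 and -3.93, Cxcl3 by -3.84 and -3.43, and Cxcl5 by -2.89 and -3.95. Cxcl3, for one, read 4.73 and 4.62 at day 0, 0.83 and 0.84 with lacZ at day 3 and 1.23 and 1.27 with MGT. Ccl5 differed by -2.79 with lacZ and -4.62 (SE 0.12, adjusted p = 3.19e-12) with MGT, and Cxcl10 by -1.94 and -3.85.

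Some receptors and CC ligands were also lower at day 3 than at day 0. Ccr7, the receptor of Ccl19 and Ccl21, read -1.02 and -1.26 at day 0 and -4.55 and -4.37 with lacZ at day 3 (-3.32, SE 0.24, adjusted p = 1.15e-07). Ccr9, which homes T cells to the gut, read -2.67 and -2.98 at day 0, was above background on no day 3 array, and was at least 8.37-fold lower with lacZ and at least 7.97-fold with MGT (adjusted p = 7.98e-07 and 1.40e-07). Ccl11, the eotaxin measured only at day 0, was at least 3.27-fold and at least 3.02-fold lower (adjusted p = 3.18e-06 and 1.86e-06). It was tested only because both day 0 arrays measured it, so these p-values are no separate support for the fall. Ccl21a went from -1.18 and -1.44 to -3.98 and -3.88 with lacZ (-2.62, adjusted p = 1.30e-05). Ccl21b, whose probe shares a run with that of Ccl21a, went the other way (0.96 with lacZ and 0.93 with MGT, adjusted p = 0.00295 and 0.00313), so the direction for this pair is uncertain. Ccl19, the other ligand of Ccr7, rose by 0.41 with lacZ (adjusted p = 0.0184) and differed by 0.22 with MGT (adjusted p = 0.169). T, NK and B cell markers were 2 higher and 5 lower of 10 in the lacZ comparison. Of the 13 on the array, 4 were above background on all 22 arrays, and Cd3d and Cd3g at day 0 alone. Their summed signal went the other way, from 7.18 to 7.94 at day 0 to 12.3 to 14.3 at day 3, and their part was not tested.

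A smaller set was higher at day 3 in both comparisons. Ccl6 rose by 2.73 (SE 0.42, adjusted p = 9.19e-05) with lacZ and 2.75 with MGT. Ccl12 rose by 1.57 and 1.59, the first of these lost without the second day 0 array (1.47, adjusted p = 0.0536). Ccl17 rose by 1.82 and 1.51, Cxcl14 by 1.26 and 1.23, and Ccl27a, a ligand of the skin-homing receptor Ccr10, by 1.82 and 2.37, from -2.53 and -2.44 to -0.64 and -0.68 with lacZ. Cxcr7 went opposite ways, -0.94 (SE 0.15, adjusted p = 0.000128) with lacZ and 2.08 (SE 0.15, adjusted p = 5.43e-08) with MGT, and Ccr6 rose with MGT (2.66, in part on signals at background). The difference between the 2 vectors at day 3 is the day 3 comparison given above. Macrophage markers were 6 higher and 5 lower of 18 with lacZ, and 7 and 3 with MGT, beside the rises of Ccl6 and Ccl12, and their part was not tested.

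From day 3 to day 14 17 of 47 genes were higher and 12 lower in lacZ cultures (56.6% of all genes called, 29.2% higher and 27.5% lower), and 16 higher and 16 lower in MGT cultures (54.1% called, 26.7% higher and 27.4% lower). The ELR ligands were lower still. Cxcl5 differed by -6.45 with lacZ and -8.07 (SE 0.24, adjusted p = 1.50e-10) with MGT, Cxcl3 by -6.24 and -5.43, and Cxcl1 by -4.12 and -3.84. Cxcl14, a ligand made by epithelia and fibroblasts, had the largest rise with lacZ, and Ccl17 the largest with MGT. In lacZ cultures Cxcl14 read -2.69 and -2.66 on day 3, -3.97 and -3.55 on day 5, -1.91 and -1.83 on day 7, -0.90 and -0.60 on day 10, and 1.85 and 1.87 on day 14. With MGT Cxcl14 read -2.65 and -2.75 on day 3, -3.74 and -3.85 on day 5, -2.82 and -2.34 on day 7, -0.31 and -0.63 on day 10, and 1.25 and 1.82 on day 14. Its level was lowest at day 5 and highest at day 14 in both sets, a rise of 4.53 (SE 0.21, adjusted p = 5.27e-09) with lacZ and 4.23 with MGT. Cx3cl1 rose by 3.07 and 3.53, and Ccl17 by 3.59 and 5.51 (SE 0.14, adjusted p = 5.11e-11).

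Ccr2, the receptor of Ccl2, was above background at day 14 alone, on 1 lacZ and both MGT arrays (-3.31 with lacZ, -3.39 and -3.10 with MGT). With MGT it was at least 5.96-fold higher than at day 3 (adjusted p = 6.13e-06). Ccr2 was tested only because both day 14 MGT arrays measured it, so this p-value is no separate support for the rise. With lacZ it passed as higher (adjusted p = 1.09e-05), with no fold given since 1 of the 2 day 14 arrays did not measure it. Macrophage markers were higher over the same span, 18 of 18 with lacZ (median 2.72) and 14 of 18 with MGT (median 1.81), with 0 lower in either, and their part in the rise of Ccr2 was not tested.

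Many chemokine genes lie in clusters. Probe positions on the mm9 build of the array design put 30 of the 54 genes in 6 clusters of at least 3 genes with gaps under 1000000 bases. The ELR cluster with Cxcl5, Cxcl3, Cxcl15, Cxcl1 and Cxcl2 spans chr5:91190490-91334593, and of its 4 tested genes 3 were lower with MGT on average and 4 were lower in lacZ day 3 minus day 0. The cluster of Ccl2, Ccl7, Ccl11, Ccl12, Ccl8 and Ccl1 spans chr11:81850650-81990227, with 5 of 6 lower on average (median -0.72), Ccl11 among them. The nearby cluster of Ccl5, Ccl9, Ccl6, Ccl3 and Ccl4 spans chr11:83339296-83478111, with 4 of 5 lower (median -0.52). Of Cxcl9, Cxcl10 and Cxcl11 (chr5:92752796-92788626) 2 of 3 were lower (median -0.28), and of Ccl27a, Ccl21a and Ccl19 (chr4:41720062-42248585) 1 of 3 (median 0.0044). The share of all genes that were lower was 40.5%, and the remaining cluster is not described here. The probe of Cxcl5 itself lies at chr5:91190490-91190549.

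Lists of the genes around the chemokines were read in the averaged MGT minus lacZ comparison, in which 23.2% of all genes were higher and 40.5% lower. Of the chemokine system genes outside the name rule, 4 of 12 passed as higher and 6 as lower (median -0.27), Cxcr7 under its current symbol included. Rarres2, the attractant chemerin, differed by -1.85 (SE 0.069, adjusted p = 4.58e-11), Ackr4, an atypical receptor that removes Ccl19 and Ccl21, by -1.69, and Ccrl2, a receptor that presents chemerin, by 0.77. Cx3cr1, the receptor of Cx3cl1, differed by -0.0087 (SE 0.16, adjusted p = 0.965). Of the NF-kappaB and inflammatory inducer genes, 5 of 35 passed as higher and 24 as lower (median -0.26). Among them Il6, an inflammatory cytokine, differed by -1.32 (SE 0.057, adjusted p = 2.11e-10), Tnfrsf1b, a tumour necrosis factor receptor, by -1.05, and Tlr4, the receptor of lipopolysaccharide, by 1.01. Of the interferon signalling genes, 4 of 19 passed as higher and 12 as lower (median -0.39), with Socs3, a feedback inhibitor of cytokine signals, at -0.83. Irf7, a transcription factor of the interferon response, differed by -0.69 (SE 0.078, adjusted p = 3.85e-06) on average. Its difference was -1.30, -2.54 and 0.77 on days 3, 5 and 14. Ifnb1, interferon beta, was lower (-1.07) but above background on 1 MGT and 2 lacZ arrays.

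In the same comparison, with 23.2% of all genes higher and 40.5% lower, 5 of 25 genes that carry the signal of chemokine receptors passed as higher and 10 as lower (median -0.10), shares close to those of all genes. Gnai1, an inhibitory G protein subunit, rose by 1.23 (SE 0.047, adjusted p = 5.95e-11) and Rgs2, which shortens G protein signals, by 1.18, and Rgs16 was lower (-0.79). Of the proteases that cut chemokines, 3 of 12 passed as higher and 6 as lower (median -0.42). Dpp4, which trims Cxcl10, Cxcl12 and Ccl5 at the N terminus, differed by -3.21 (SE 0.090, adjusted p = 2.24e-12), the stromelysin Mmp3 by -2.83 and the gelatinase Mmp2, which cleaves Ccl7 and Cxcl12, by -1.19. Among marker lists not given above, 1 of 14 passed as higher and 13 as lower (median -1.11) of the fibroblast markers, 14 of 14 passed as higher and 0 as lower (median 6.43) of the cardiomyocyte markers and 5 of 11 passed as higher and 6 as lower (median -0.29) of the mesothelial and epicardial markers. Of the homeostatic CXC, CX3C and XC ligands 1 of 5 passed as higher and 3 as lower (median -0.19), of the interferon-inducible ligands 0 of 3 passed as higher and 2 as lower (median -0.28), and of the homeostatic CC ligands 1 of 8 passed as higher and 3 as lower (median -0.085).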

How the data were processed

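One-colour Agilent arrays were read in 22 samples of 11 groups. The values were spot intensities (gProcessedSignal), already background-subtracted by Agilent Feature Extraction 10.7.3.1 per the file headers. The submitters' processing notes name limma. The authors' deposited table of normalized intensities chose the gene names and otherwise served as an alternative (18030 genes matched).

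Control spots were dropped, each array was divided by the 75th percentile of the remaining intensities before log2 was taken, and outlier-flagged spots were left out. A probe was kept where both arrays of a group were well above background (38800 of 55681 probes), and the brightest probe stood for its gene. All 11 comparisons came from one fit of group means (limma 3.58.1, R 4.3.3), with Benjamini-Hochberg adjustment over 18056 genes in each comparison. The script was tested on simulated data. An "at least" fold compares group means with unmeasured arrays entered at their detection limit.

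Genes named with values passed the filter and either passed in the averaged comparison with the same sign on 5 days (10 largest each way), or were among the 3 largest each way in another comparison. Other genes named to complete a family, cluster or list were chosen after their values were seen. Genes around the chemokines were named by the 3 largest differences in a list that passed. One gene is not reported by name here and is in no figure, and the counts over all members include it. The members and lists were chosen with earlier results of these data known. Alternatives covered background correction, scaling, filters, probes, samples in the fit, replicate block, days averaged and single arrays left out. Promoter sequences were RefSeq's (GRCm38.p6), and the scan read both strands.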

Additional observations from a re-analysis of the deposited data

Results flagged for a closer look

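For 15 chemokine genes the MGT minus lacZ difference itself changed between day 3 and day 14, by limma's test of that change over all genes. It moved upward for Cxcl10 (2.88 on the log2 scale), Ccl5 (2.17), Ccl17 (1.92) and Cxcr6 (1.27). It moved downward for the ligands Cxcl5 (-1.62), Ccl21b (-1.49), Ccl27a (-0.83), Ccl7 (-0.79), Ccl19 (-0.74) and Ccl2 (-0.62) and for the receptors Cxcr7 (-2.85) and Ccr3 (-1.62). Ccr6 (-3.03) moved downward in part on signals at background, and its call was lost without the first day 3 lacZ array (-2.94) or the first day 14 MGT array (-2.99). Ccl11 (-2.31) was above background on none of the arrays compared. The Cxcl11 value (-1.14) rests on the probe whose sequence run is shared with other gene names. The Ccl2 call was lost without the first day 14 MGT array (-0.56), and that of Ccl19 without the second (-0.64). The other 3 Ccl27a probes gave -0.35, -0.43 and -0.20 (adjusted p = 0.0649, 0.0695 and 0.469), none past the threshold. MGT and lacZ of day 14 lay on different slides, so slide and vector at day 14 cannot be told apart in these changes.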

How the results depend on the processing

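The number of called chemokine genes stayed within 1.5 times of the value reported in all alternatives run except 4. It was 19 for lacZ day 14 minus day 3 with only genes above background on every array, where 26 genes were tested, 9 and 10 for MGT minus lacZ at days 10 and 14 with only that day's arrays in the fit, and 19 for the averaged difference over days 7 and 10 alone. Leaving out 1 array at a time gave 25 to 31 calls for the averaged difference, 8 to 11 at day 3, 16 to 17 at day 5, 10 to 18 at day 7, 12 to 20 at day 10 and 15 to 27 at day 14. The same gave 12 to 19 for the change from day 3 to day 14, 26 to 27 and 28 to 29 for lacZ and MGT day 3 minus day 0, and 25 to 29 and 25 to 28 for lacZ and MGT day 14 minus day 3. With normexp background correction the sign turned for Cxcl3 at day 14 (-0.22), Ccr2 at day 3 minus day 0 (0.076 with lacZ, 0.11 with MGT) and, in MGT day 14 minus day 3, Ccl1 (-0.059) and Ccr9 (-0.010). With the deposited table it turned for Cxcl12 on average (0.018), at day 14 (0.028) and in day 3 minus day 0 (0.78 with lacZ, 0.67 with MGT), for Cxcl11 at day 14 (0.017) and for Ccl1 in lacZ day 14 minus day 3 (-0.59). With the mean of all probes it turned for Ccl27a at day 14 (0.018) and Cxcl12 in day 3 minus day 0 (0.73 and 0.56). The average over days 3 and 5 turned Ccr3 (0.56), and that over days 7 and 10 Cxcl13 (-0.0038). The cause was not tested. Over 250 called differences and 3795 settings, 3377 kept direction and call, 402 lost the call and 16 reversed. Of the 29 averaged calls 12 held in all settings, those of Ccl12, Ccl17, Ccl19, Ccl2, Ccl5, Ccl7, Ccr6, Cx3cl1, Cxcl1, Cxcl5, Cxcr6 and Cxcr7. Among these, Ccr6 was tested only because arrays of MGT groups measured it, so its call is no separate support. Arrays of the same replicate number did not deviate together (correlations of lacZ and MGT deviations from -0.029 to 0.092 over the 5 days). With 2 arrays a group this cannot exclude that arrays of 1 number share a source, so the meaning of the numbers stays unknown. With a replicate block the counts were 29 on average, 11, 20, 14, 15 and 20 on the single days, 15 for the change, 31 and 30 for day 3 minus day 0 and 29 and 32 for day 14 minus day 3. The slide as a random block could not be fitted, since each group lies on 1 slide. Signal over background limits many receptors, of which 3 of 19 were above background on all 22 arrays, against 23 of 35 ligands.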
